A study of Mus musculus with 12 samples.

Results

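The 10 genes described here belong to the unfolded protein response of the endoplasmic reticulum (ER): Hspa5, Hsp90b1, Pdia4, Dnajb9, Sdf2l1, Creld2, Herpud1, Ern1, Atf6 and Xbp1. They were chosen by gene symbol from the 57180 genes of the quantified annotation, and all 10 passed the filter on low counts. They were followed in 4 groups of mouse cells with 3 libraries each. All groups carried the same E14 embryonic stem cell (ESC) background, derived from 1 chosen clone in which doxycycline (DOX) induces a CRISPR interference repressor, which a guide RNA directs to the start of a gene to lower its transcription. The Neg line carried scramble guides, and the 3xKD line carried guides that repress Pcx, Me1 and Me2 together, the genes of pyruvate carboxylase and of the cytosolic and mitochondrial malic enzymes. Guides were delivered by PiggyBac and kept under antibiotic selection. Each line was sequenced as ESCs, held in N2B27 medium with 2i and Lif, and as epiblast-like cells at day 2 of induction (EpiLCs day 2). EpiLCs were grown in N2B27 medium with Activin A, Fgf2 and a Wnt inhibitor, so state and medium changed together. The paper states that its cell lines were kept under low oxygen. The groups are Neg ESCs, 3xKD ESCs, Neg EpiLCs and 3xKD EpiLCs. The sample titles do not state the DOX treatment. In its legend on the expression of metabolic genes, the paper gives the cells of both lines and both states as DOX-treated. No library of another independently made Neg or 3xKD line was analysed here, so the guides and the line that carries them cannot be told apart.

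The ER folds membrane and secreted proteins, and misfolded protein in its lumen is sensed by IRE1 (encoded by Ern1), ATF6 and PERK. Active IRE1 cuts a short segment out of Xbp1 mRNA, which shifts the reading frame and yields the transcription factor XBP1s. ATF6 is cleaved in the Golgi to release its own transcription factor domain, and PERK phosphorylates eIF2α, which lowers translation in general while favouring that of ATF4. XBP1s and ATF6 raise chaperone and degradation genes through short promoter sequences named ERSE, ERSE-II and UPRE, and BiP, the product of Hspa5, in turn binds the sensors.

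The libraries held between 11221023 and 19652197 estimated counts. The targeted genes were lower in 6 of 6 3xKD libraries than in the Neg libraries of the same state, with log2 fold changes in ESCs of -1.14 for Pcx, -0.89 for Me1 and -0.95 for Me2. The summed level of 10 naive pluripotency markers was 4638 to 4774 CPM (normalized counts scaled to a common library total) in Neg ESCs, 3177 to 3227 in 3xKD ESCs, 466 to 481 in Neg EpiLCs and 517 to 541 in 3xKD EpiLCs. The summed level of 9 formative and primed markers was 322 to 334, 312 to 322, 3170 to 3553 and 1787 to 1855 CPM in the same order, so the state labels matched their markers and the 3xKD EpiLCs held less of the formative set than the Neg EpiLCs. The 10 markers of primitive endoderm, a lineage that secretes much protein, summed to 83.3 to 90.9 CPM in Neg ESCs and 118 to 125 in 3xKD ESCs, and to 59.5 to 64.0 and 55.6 to 63.3 in Neg and 3xKD EpiLCs. Of these 10 markers Sox7 was at 0 in 1 3xKD ESC library and the other 9 were above 0 in every library, and Sparc alone accounted for 60.2 to 64.4 CPM in Neg ESCs and 85.5 to 89.5 in 3xKD ESCs. The 8 neuroectoderm markers summed to 123 to 135 CPM in Neg ESCs and 114 to 122 in 3xKD ESCs. Within this sum the mean of Tubb3 went from 46.5 to 30.3 CPM, while 5 of the 8 log2 fold changes lay above 0. In Neg and 3xKD EpiLCs the neuroectoderm markers summed to 137 to 141 and 73.8 to 76.8. The 7 mesoderm markers that passed the count filter summed to 28.4 to 29.9 and 28.3 to 33.7 CPM in Neg and 3xKD ESCs. Eomes alone accounted for 23.1 to 24.4 and 24.3 to 27.7 CPM of these sums. In Neg and 3xKD EpiLCs the mesoderm markers summed to 21.1 to 22.3 and 23.1 to 25.6. The part of these marker differences in the levels of the 10 genes was not tested.

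The sequence that IRE1 acts on is shown first, because the form of Xbp1 mRNA is the direct readout of that sensor. It lies in Xbp1 at chr11:5474258-5474323 on the plus strand of GRCm39. The capitals mark the 26 bases, 5474278 to 5474303, that are absent from the spliced transcript Xbp1-205, with 20 bases on either side.
Xbp1: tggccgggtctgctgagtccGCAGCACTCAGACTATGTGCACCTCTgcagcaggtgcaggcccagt

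The promoters of the members were searched for the response elements, since these elements are what the 10 genes could share in sequence. RefSeq promoter windows on GRCm38.p6, from 250 bases before to 50 after the gene start, were at hand for 9 of the 10 members (Atf6 had none). The ERSE was taken as CCAAT followed after 9 bases of any kind by CCACG, the ERSE-II as ATTGG followed after 1 base of any kind by CCACG, and the UPRE core as TGACGTG, each on either strand. An exact ERSE was found in Hspa5, Hsp90b1 and Creld2, and in 0.119% of all 32851 promoters. An exact ERSE-II was found in Herpud1 and in 0.0365% of all promoters. The UPRE core was found in Hspa5 and in 2.01% of all promoters. Hsp90b1 held 2 ERSE matches, on opposite strands, and the Creld2 match was on the minus strand relative to the gene. The windows around the matches follow, in the direction of the gene, with each match in capitals. They lie at chr2:34771913-34772063 (plus strand) for Hspa5, chr10:86705513-86705676 (minus strand) for Hsp90b1, chr15:88819500-88819558 (plus strand) for Creld2 and chr8:94386357-94386407 (plus strand) for Herpud1.
Hspa5: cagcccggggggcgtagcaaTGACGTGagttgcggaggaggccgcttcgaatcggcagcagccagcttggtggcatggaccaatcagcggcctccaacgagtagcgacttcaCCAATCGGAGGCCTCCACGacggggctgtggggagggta
Hsp90b1: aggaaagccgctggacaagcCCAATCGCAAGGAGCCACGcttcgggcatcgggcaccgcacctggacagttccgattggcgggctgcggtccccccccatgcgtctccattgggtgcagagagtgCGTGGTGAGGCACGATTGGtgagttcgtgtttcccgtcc
Creld2: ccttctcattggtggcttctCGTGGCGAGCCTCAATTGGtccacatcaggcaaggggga
Herpud1: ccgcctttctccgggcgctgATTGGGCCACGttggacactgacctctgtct
Counted from the gene start, the last base of the ERSE lay at position -47 in Hspa5, at -194 and -89 in Hsp90b1 and at -108 in Creld2, and the last base of the ERSE-II lay at -42 in Herpud1. These matches are letters only, and binding was not measured. The elements are those known for genes of this response, and the members were chosen as such genes. Matches in them therefore describe the promoters and are not a test against the share of all promoters.

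Levels were compared between genes per length, with the deposited TPM (transcript abundance scaled by length and library total) summed per gene. Hsp90b1, which encodes the ER HSP90 chaperone GRP94, had the highest mean over the 12 libraries, 116.9 TPM (range 78.9 to 191.6). Hspa5 followed with 54.3 TPM (39.8 to 70.0), and the ranges of these 2 genes did not overlap. Pdia4, a protein disulfide isomerase, stood at 18.97 TPM (14.3 to 25.2), Creld2 at 17.0 (13.0 to 22.6), Xbp1 at 16.2 (13.0 to 21.2) and Sdf2l1 at 12.7 (8.68 to 17.5), each overlapping the next. Herpud1 (8.46 TPM), Dnajb9 (6.55), Atf6 (5.07) and Ern1 (3.75) were the lowest, so both sensors lay below the chaperones on average. The place of Hsp90b1 rested in part on minor transcripts. Its main transcript took 95.1% to 97.1% of its counts but only 31.9% to 54.0% of its TPM, and when main transcripts alone were compared Hsp90b1 (47.8 TPM, 35.3 to 65.2) and Hspa5 (43.5 TPM, 31.8 to 57.2) overlapped. By main transcripts Atf6 (5.01 TPM) also stood above Dnajb9 (4.67 TPM). The members were also measured within each gene by CPM scaled with TMM factors, which is not per length and is used below for differences between groups.

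**Figure D1:**
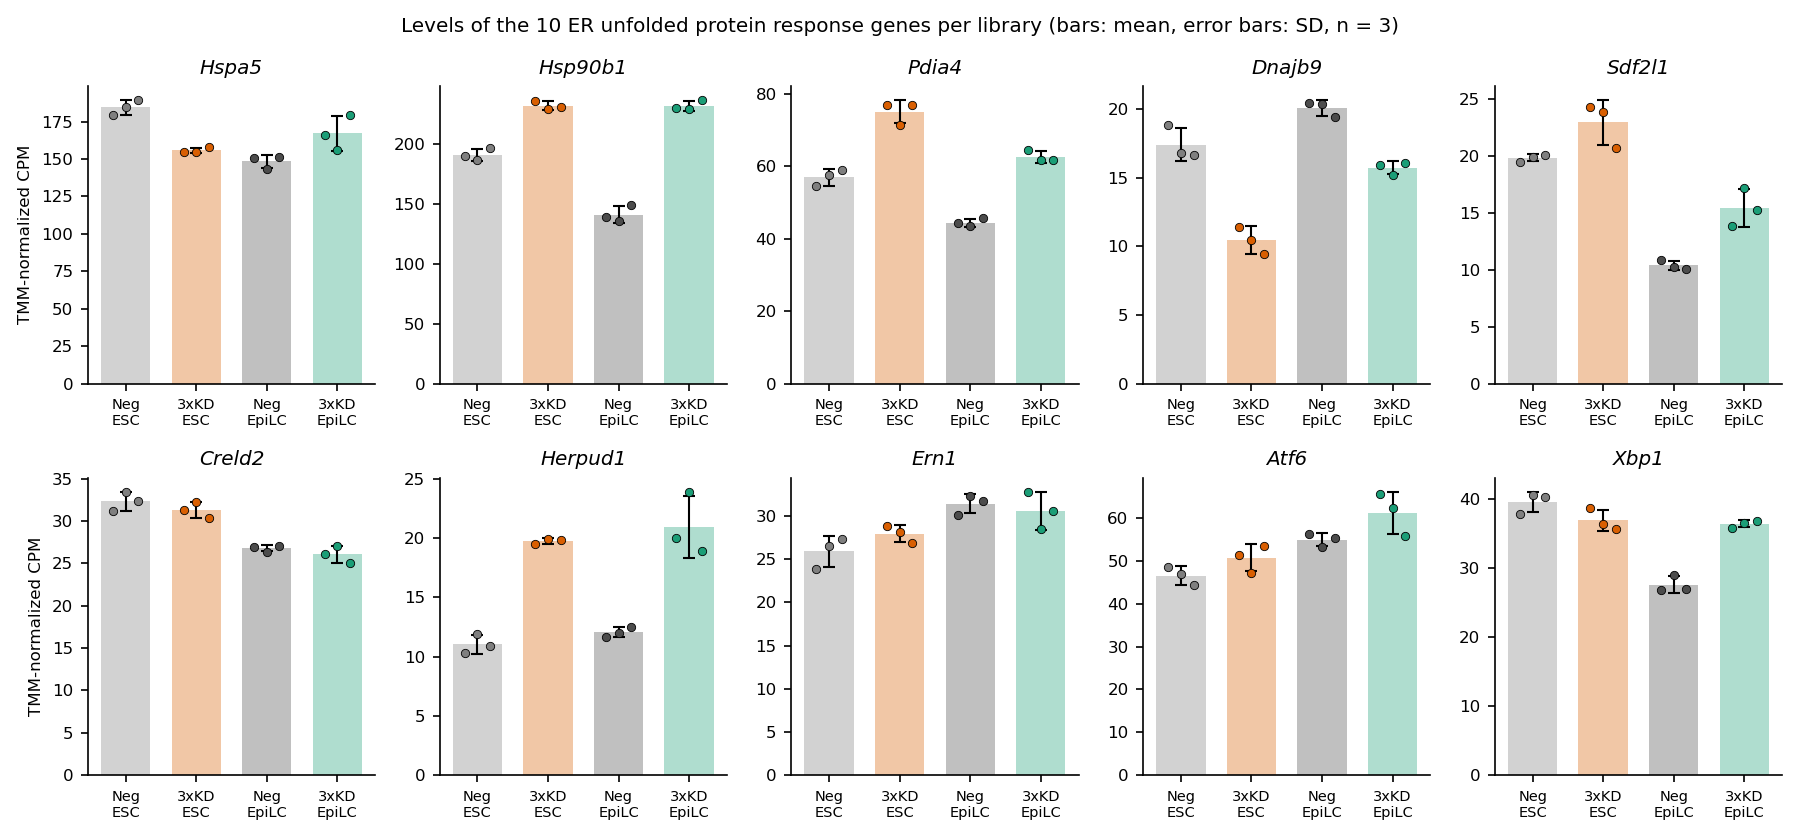
TMM-normalized CPM (y axis) of each of the 10 genes in the 4 groups (x axis), with 1 point per library, bars for the mean and error bars for the SD of 3 libraries. Herpud1 and Pdia4 sit higher and Dnajb9 lower in 3xKD than in Neg libraries of both states, while Hspa5 sits lower in 3xKD ESCs and higher in 3xKD EpiLCs.

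The first comparison, 3xKD against Neg in ESCs, asks how repression of Pcx, Me1 and Me2 changes the members in the naive state. A call needed an adjusted p under 0.01 together with a log2 fold change beyond 0.58 in either direction. Of the 10 members, Herpud1 rose and Dnajb9 fell, beside 8.5% of all 25446 tested genes called higher and 6.76% called lower. By the adjusted p alone, 3 members passed higher (Hsp90b1, Pdia4, Herpud1) and 2 lower (Hspa5, Dnajb9), beside 15.6% and 16% of all genes. The median log2 fold change of the members was 0.11, against 0.03 over all tested genes.

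Herpud1, which encodes an ER membrane protein of the degradation machinery, was measured at 10.3, 11.9 and 10.9 CPM in Neg ESCs and at 19.5, 19.9 and 19.9 CPM in 3xKD ESCs. Every 3xKD library lay above every Neg library, with a log2 fold change of 0.84 ± 0.09 (SE, edgeR adjusted p = 1.02e-06), or 1.79-fold. Dnajb9, which encodes the BiP co-chaperone ERdj4, was at 18.8, 16.8 and 16.6 CPM in Neg ESCs and at 11.4, 10.5 and 9.41 CPM in 3xKD ESCs. The groups did not overlap and the level fell by 0.73 on the log2 scale (SE 0.08, edgeR adjusted p = 1.92e-06). Herpud1 lies at chromosome 8, 95113022 to 95123141, and Dnajb9 at chromosome 12, 44252341 to 44257171 (GRCm39, GENCODE vM39). With transcript-length offsets in the fit, neither was called, at log2 fold changes of 0.60 for Herpud1 and -1.001 for Dnajb9.

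The most abundant chaperones moved apart in ESCs. Hspa5, at chromosome 2, 34661982 to 34668880, encodes BiP, the HSP70 of the ER lumen. It was at 179.5, 184.6 and 189.3 CPM in Neg ESCs and at 155.0, 154.7 and 157.8 CPM in 3xKD ESCs. All 3xKD libraries lay below all Neg libraries, a log2 fold change of -0.24 ± 0.04 (SE, edgeR adjusted p = 0.000243), or 0.844-fold. Hsp90b1, at chromosome 10, 86526073 to 86541446, was at 189.6, 186.8 and 196.3 CPM in Neg ESCs and at 235.9, 229.3 and 230.3 CPM in 3xKD ESCs. It was higher in every 3xKD library, with a log2 fold change of 0.28 ± 0.04 (SE, edgeR adjusted p = 9.15e-06). Pdia4, at chromosome 6, 47770077 to 47790462, was at 54.5, 57.5 and 59.1 CPM in Neg ESCs and at 77.0, 71.5 and 77.0 CPM in 3xKD ESCs. These groups were also separate, at a log2 fold change of 0.39 ± 0.05 (SE, edgeR adjusted p = 2.3e-06). These 3 differences passed the adjusted p but were smaller than the fold limit.

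Sdf2l1, Creld2, Ern1, Atf6 and Xbp1 passed neither criterion in ESCs. Sdf2l1, whose product works with BiP and its co-chaperones, had a log2 fold change of 0.21 (95% interval 0.03 to 0.39), and its gene lies on chromosome 16, 16948002 to 16950252. Over the 454 chromosome 16 genes that averaged 1 CPM or more, the median log2 fold change was 0.30 in the same comparison, while the medians of the other chromosomes that carry members lay between -0.05 and 0.06. Relative to the median of its own chromosome Sdf2l1 stood at -0.09. Creld2, a disulfide isomerase on chromosome 15 at 88703795 to 88710890, had a log2 fold change of -0.05 (95% interval -0.16 to 0.06). The interval was -0.04 to 0.25 for Ern1 (chromosome 11, 106283818 to 106378686), -0.01 to 0.26 for Atf6 (chromosome 1, 170532026 to 170696208) and -0.21 to 0.01 for Xbp1 (chromosome 11, 5470606 to 5483027).

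The second comparison asks the same of EpiLCs day 2. Hsp90b1 and Herpud1 rose, beside 7.88% of all tested genes called higher. No member was called lower (5.35% of all genes). At an unadjusted p under 0.05, 7 members passed higher and 1 lower. DESeq2 called 2 members higher and 0 lower, beside 3015 genes called in either direction over all genes. No share of all genes at the unadjusted limit is given here or below, so counts at that limit are not compared with the background. The adjusted p alone was passed by 6 members higher (Hspa5, Hsp90b1, Xbp1, Herpud1, Sdf2l1, Pdia4) and 1 lower (Dnajb9), beside 14.3% and 15.6% of all genes. As in ESCs, these shares include genes of low level and are not a background of like level. The median log2 fold change was 0.29 for the members and 0.03 over all tested genes.

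Hsp90b1 was at 138.8, 135.4 and 148.9 CPM in Neg EpiLCs and at 229.9, 228.8 and 236.5 CPM in 3xKD EpiLCs. The 3xKD libraries were 1.64-fold higher with no overlap, at a log2 fold change of 0.72 ± 0.04 (SE, edgeR adjusted p = 2.43e-10). With transcript-length offsets this call was lost, at a log2 fold change of 0.48, whereas the main transcript alone differed by 0.77 on the log2 scale, scaled to library totals. Herpud1 was at 11.6, 12.01 and 12.5 CPM in Neg EpiLCs and at 20.04, 23.9 and 18.9 CPM in 3xKD EpiLCs. It was again higher in every 3xKD library, with a log2 fold change of 0.80 ± 0.09 (SE, edgeR adjusted p = 1.62e-06).

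Hspa5 was at 150.6, 143.3 and 151.3 CPM in Neg EpiLCs and at 165.8, 155.9 and 179.5 CPM in 3xKD EpiLCs. Here the 3xKD libraries lay above the Neg libraries, without overlap, by a log2 fold change of 0.17 ± 0.04 (SE, edgeR adjusted p = 0.00507). Xbp1 was at 26.8, 29.1 and 27.0 CPM in Neg EpiLCs and at 35.9, 36.5 and 36.9 CPM in 3xKD EpiLCs. The groups were separate, at a log2 fold change of 0.40 ± 0.05 (SE, edgeR adjusted p = 1.38e-05). Pdia4 was at 44.3, 43.5 and 45.6 CPM in Neg EpiLCs and at 64.7, 61.8 and 61.8 CPM in 3xKD EpiLCs, a log2 fold change of 0.50 ± 0.05 (SE). Dnajb9 was at 20.4, 20.3 and 19.4 CPM in Neg EpiLCs and at 15.9, 15.2 and 16.0 CPM in 3xKD EpiLCs. It stayed below Neg in every 3xKD library, at a log2 fold change of -0.35 ± 0.08 (SE, edgeR adjusted p = 0.00172).

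Sdf2l1 was at 10.8, 10.3 and 10.1 CPM in Neg EpiLCs and at 13.8, 17.2 and 15.2 CPM in 3xKD EpiLCs. The libraries did not overlap, and the log2 fold change of 0.57 ± 0.09 (SE, edgeR adjusted p = 7.53e-05) lay just under the fold limit. Chromosome 16 as a whole had a median of 0.30 here too, which left Sdf2l1 0.27 above its chromosome. Without Neg EpiLC replicate 1 it reached 0.61, and without 3xKD EpiLC replicate 1 it reached 0.64, above the limit in both cases. Creld2 was at 26.9, 26.4 and 27.1 CPM in Neg EpiLCs and at 26.1, 27.1 and 25.1 CPM in 3xKD EpiLCs. The groups overlapped, and the 95% interval of its log2 fold change was -0.15 to 0.08. The interval was -0.18 to 0.10 for Ern1 and 0.03 to 0.29 for Atf6.

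**Figure D2:**
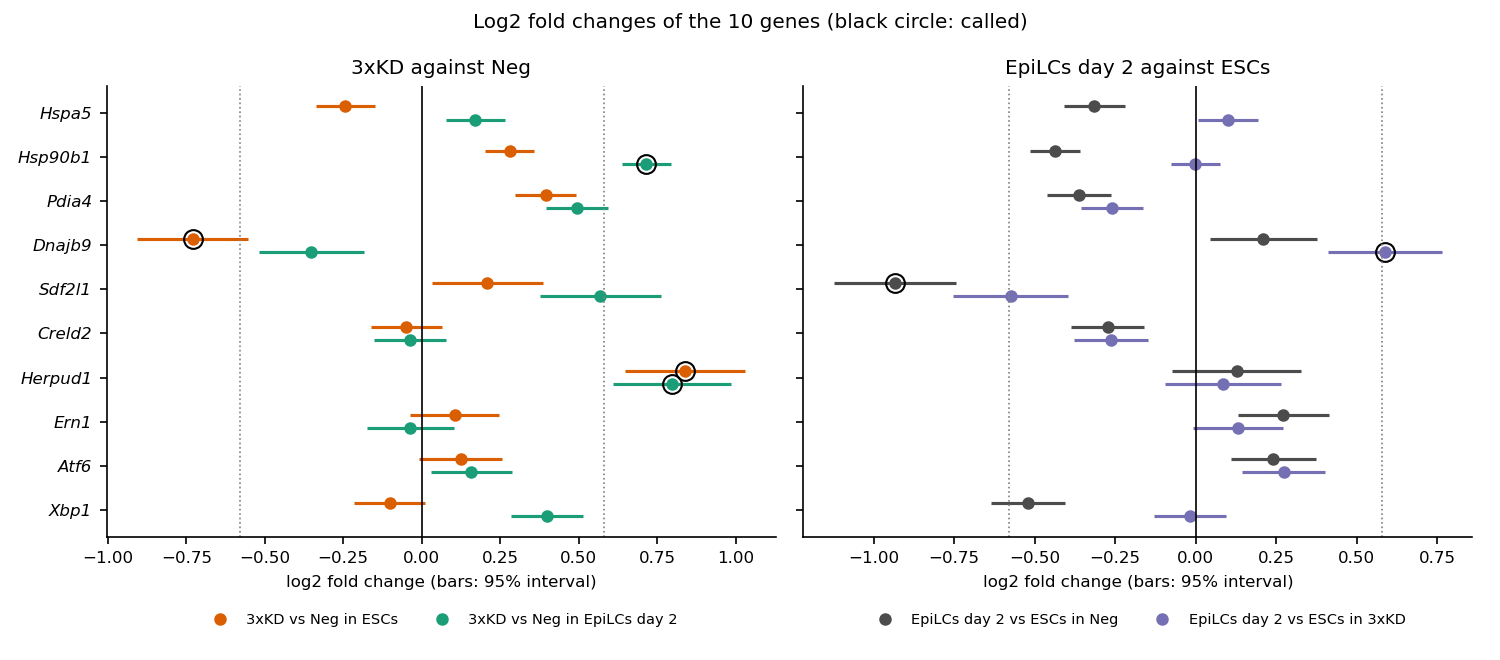
Log2 fold changes (x axis) of the 10 genes (y axis) with 95% intervals, for 3xKD against Neg in each state (left) and for EpiLCs day 2 against ESCs in each line (right). Dotted lines stand at 0.58 in either direction and black circles mark calls. Hspa5 lies at -0.24 in ESCs and at 0.17 in EpiLCs, and the falls of Hspa5, Hsp90b1 and Xbp1 seen in Neg (right) have no counterpart of that size in 3xKD.

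Whether the 3xKD effect differed between the states was tested as an interaction, called at an adjusted p under 0.01. Hspa5, Hsp90b1 and Xbp1 passed, all with the higher value in EpiLCs, beside 4.76% of all tested genes called in that direction. No member passed in the other direction, in which 5.27% of all genes were called, and 0 did so at an unadjusted p under 0.05 or by DESeq2. The difference of log2 fold changes was 0.42 ± 0.06 for Hspa5 (SE, edgeR adjusted p = 0.00017), 0.44 ± 0.05 for Hsp90b1 (SE, edgeR adjusted p = 1.8e-05) and 0.50 ± 0.08 for Xbp1 (SE, edgeR adjusted p = 0.000169). In CPM the 2 effects on Hspa5 had opposite signs, below Neg in 3 of 3 3xKD ESC libraries and above it in 3 of 3 3xKD EpiLC libraries. The interval of the difference was -0.31 to 0.23 for Herpud1, -0.04 to 0.24 for Pdia4 and -0.15 to 0.17 for Creld2, and none of these passed.

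These 3 calls were lost with transcript-length offsets, which also lowered the calls over all tested genes from 2553 to 731. The differences were 0.31 for Hspa5, 0.46 for Xbp1 and -0.01 for Hsp90b1 in that fit. The mean effective length assigned to Hsp90b1 was 1323 bases in Neg ESCs, 1158 in 3xKD ESCs, 930 in Neg EpiLCs and 1100 in 3xKD EpiLCs, although 1 transcript held at least 95.1% of its counts in each library. For Hspa5 this length was 2012, 1984, 1912 and 1981 bases in the same order. The Hspa5 main transcript alone differed by -0.26 in ESCs and by 0.23 in EpiLCs on the log2 scale, scaled to library totals. With offsets the effect on Hspa5 was -0.21 in ESCs (edgeR adjusted p = 0.00997) and 0.10 in EpiLCs (edgeR adjusted p = 0.193). Its summed TPM averaged 57.6 in Neg and 45.5 in 3xKD ESCs, and 58.4 in Neg and 56.0 in 3xKD EpiLCs. The libraries overlapped in both states by TPM, so the EpiLC rise of Hspa5 depended on the scale used.

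The third pair of comparisons follows each line from ESCs to EpiLCs day 2. In Neg cells Sdf2l1 fell, beside 11% of all tested genes called lower. No member was called higher (9.78% of all genes), with 3 passing higher and 6 lower at an unadjusted p under 0.05 and none called higher by DESeq2. Sdf2l1 went from 19.5, 19.96 and 20.1 CPM in Neg ESCs to 10.8, 10.3 and 10.1 CPM in Neg EpiLCs, the largest log2 difference among the members (-0.93 ± 0.09, SE, edgeR adjusted p = 1.62e-07). On the adjusted p alone, 6 members passed lower (18.2% of all genes) and 2 higher (17.5%). The 6 were Hspa5 (-0.31), Hsp90b1 (-0.44), Xbp1 (-0.52), Sdf2l1, Creld2 (-0.27) and Pdia4 (-0.36), which includes 5 folding factors and the transcription factor. The 2 were the sensors, Ern1 (0.27) and Atf6 (0.24). Ern1 was at 23.8, 26.6 and 27.3 CPM in Neg ESCs and at 30.2, 32.4 and 31.7 CPM in Neg EpiLCs. Atf6 was at 48.6, 47.0 and 44.4 CPM in Neg ESCs and at 56.3, 53.3 and 55.3 CPM in Neg EpiLCs, so both sensors were separate between the states. With transcript-length offsets Hsp90b1 changed sign, to 0.11.

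In 3xKD cells Dnajb9 rose on the way to EpiLCs, beside 9.42% of all tested genes called higher. No member was called lower (9.32% of all genes), while 3 passed lower and 3 higher at an unadjusted p under 0.05 and DESeq2 called 0 lower. The log2 fold change of Dnajb9 was 0.59 ± 0.08 (SE, edgeR adjusted p = 1.8e-05). It fell under the fold limit without 3xKD ESC replicate 3 (0.52) and without 3xKD EpiLC replicate 1 (0.58 after rounding), and the call was lost with transcript-length offsets (0.37). Sdf2l1, at -0.57 ± 0.08 (SE), was called instead without 3xKD ESC replicate 3 (-0.64) or 3xKD EpiLC replicate 2 (-0.66). By the adjusted p alone, 3 members passed lower (Sdf2l1, Creld2, Pdia4) and 2 higher (Dnajb9, Atf6), beside 17.9% and 15.9% of all genes. Hsp90b1 stood at 235.9, 229.3 and 230.3 CPM before and 229.9, 228.8 and 236.5 CPM after, with a 95% interval of the log2 fold change from -0.08 to 0.08. Xbp1 stood at 38.6, 36.3 and 35.7 CPM before and 35.9, 36.5 and 36.9 CPM after, with an interval from -0.13 to 0.09. The interval for Hspa5 was 0.01 to 0.19. The comparisons within 3xKD and within Neg share their libraries with the 3xKD against Neg comparisons above, and are the same interaction read along the other axis.

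Splicing of Xbp1 by IRE1 was read from the transcript estimates. Of the 5 Xbp1 transcripts quantified, Xbp1-205 lacks the 26 bases printed above and 3 hold them, the main one being Xbp1-201. The spliced form took 42.3%, 38.7% and 29.0% of the TPM assigned to either form in Neg ESCs, and 33.8%, 30.9% and 36.3% in 3xKD ESCs. It took 36.7%, 38.2% and 35.2% in Neg EpiLCs and 27.6%, 28.2% and 42.4% in 3xKD EpiLCs. The groups overlapped in both states, with means ± SD (n = 3) of 36.7% ± 6.87, 33.7% ± 2.68, 36.7% ± 1.53 and 32.7% ± 8.37 in that order. Between 88.3 and 155 estimated counts per library went to the spliced form. By estimated counts in place of TPM the means were 22.2%, 20.95%, 21.9% and 20.1%. By TPM the library ranges overlapped between all 4 groups, and differences in the spliced share were not tested. The 3xKD EpiLC mean lay below all 3 Neg EpiLC libraries, and its SD of 8.37 rested largely on 1 library at 42.4%. These shares rest on how the quantifier divided reads between overlapping transcripts, and Xbp1-205 is annotated with 1116 bases against 2134 for Xbp1-201, so the shares are not a count of reads across the splice junction. The gene Ccdc117 overlaps Xbp1 on the opposite strand. The library kit was directional, and the strand setting of the counting is not given in the sources used here.

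**Figure D3:**
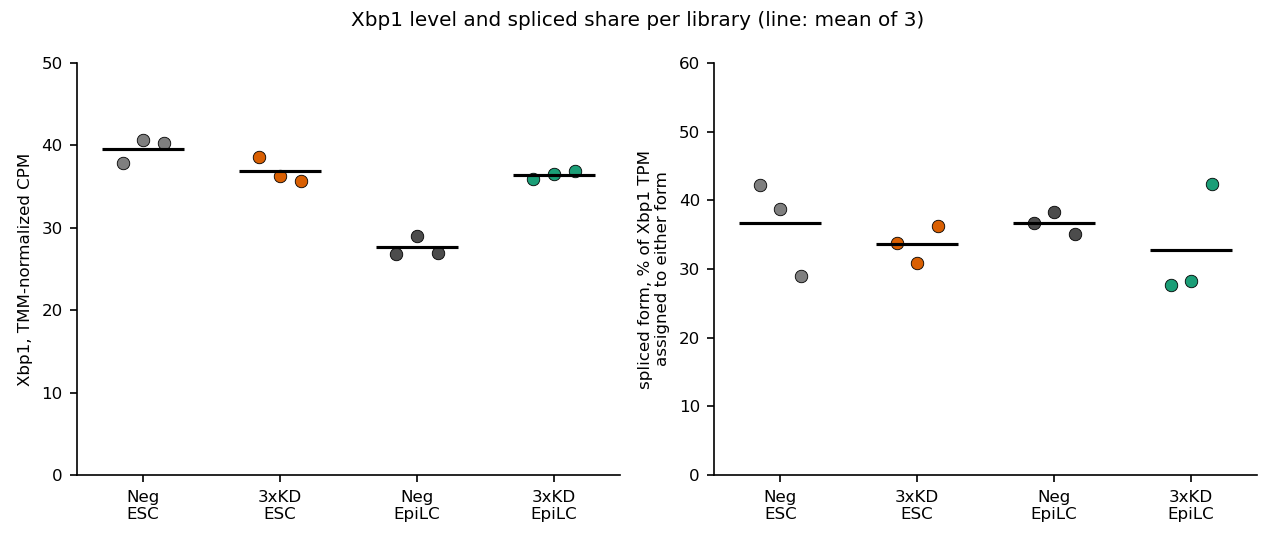
Xbp1 level in TMM-normalized CPM (left) and the share of the spliced form in percent of the TPM assigned to either form (right), with 1 point per library and a line at the mean of 3. The level is lowest in the 3 Neg EpiLC libraries, 26.8 to 29.1 CPM, while the spliced share spans 27.6% to 42.4% with overlap between all groups.

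The wider ER stress pathway was described with 77 further genes in 5 lists, of which 76 were tested. In ESCs 8 of the 76 rose and 2 fell in 3xKD, beside 8.5% and 6.76% of all tested genes. In EpiLCs 10 rose and 2 fell, beside 7.88% and 5.35%. The median log2 fold change over the 76 was 0.01 in ESCs and 0.10 in EpiLCs. The members are not in these lists. For the counts by the adjusted p alone in each list below, the shares of all tested genes were 15.6% higher and 16% lower in ESCs. In EpiLCs these shares were 14.3% and 15.6%.

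Folding and disulfide exchange had 3 of 22 genes called higher in 3xKD ESCs and 4 of 22 in 3xKD EpiLCs, with 0 called lower by edgeR or DESeq2 in either. At the adjusted p alone, 12 were higher and 1 lower in ESCs, and 13 were higher and 0 lower in EpiLCs. At an unadjusted p under 0.05 the counts were 13 higher and 2 lower, and 17 higher and 0 lower. The list median was 0.17 and 0.33. Ero1a, the oxidase that recharges protein disulfide isomerase, changed most. It was at 112 to 119 CPM in Neg ESCs, 369 to 397 in 3xKD ESCs, 66.8 to 70.8 in Neg EpiLCs and 204 to 223 in 3xKD EpiLCs, 3.30-fold and 3.13-fold higher in 3xKD. The ranges did not overlap in either state.

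The output of PERK and ATF4 had 4 of 8 genes called higher in 3xKD ESCs and 3 of 8 in 3xKD EpiLCs, with 0 called lower by edgeR or DESeq2 in either. By the adjusted p alone 5 were higher and 2 lower in ESCs, and 4 were higher and 3 lower in EpiLCs. At an unadjusted p under 0.05 the counts were 5 higher and 3 lower, and 4 higher and 3 lower. The list median was 0.53 in ESCs and -0.0062 in EpiLCs. Those lower by the adjusted p, given here after their values were seen, were Ppp1r15a (-0.43 in ESCs and -0.36 in EpiLCs), Atf5 (-0.28 and -0.32) and, in EpiLCs, Sesn2 (-0.53). Ddit3, which encodes the stress transcription factor CHOP, was at 11.9 to 12.7 CPM in Neg ESCs and 48.2 to 49.4 in 3xKD ESCs, a log2 fold change of 1.99 ± 0.06 (SE, edgeR adjusted p = 1.4e-12). In EpiLCs it was at 17.9 to 19.5 CPM in Neg and 43.6 to 49.6 in 3xKD, a log2 fold change of 1.32 ± 0.06 (SE), and the 2 effects differed by -0.67 (edgeR adjusted p = 4.36e-05). Trib3, a pseudokinase induced through ATF4 and CHOP, rose from 11.2 to 13.97 CPM in Neg EpiLCs to 40.5 to 42.7 in 3xKD EpiLCs, 3.38-fold. Its log2 fold change in ESCs was 1.58 ± 0.08 (SE). Both genes changed by more than any of the 10 members in either state.

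ER-associated degradation had 0 of 15 genes called higher by edgeR or DESeq2 in either state. By the adjusted p alone 3 were higher and 5 lower in ESCs, and 2 were higher and 4 lower in EpiLCs. At an unadjusted p under 0.05 the counts were 3 higher and 7 lower, and 3 higher and 5 lower. The list median was -0.09 and -0.07. Derl3 and Os9 fell in 3xKD ESCs and Ube2g2 in 3xKD EpiLCs. Os9, a lectin that recognises misfolded glycoproteins, was at 32.4 to 40.9 CPM in Neg ESCs and 23.2 to 25.7 in 3xKD ESCs, but at 24.5 to 25.1 in Neg EpiLCs and 27.1 to 28.5 in 3xKD EpiLCs. Ube2g2, a ubiquitin-conjugating enzyme, was at 41.6 to 43.9 CPM in Neg EpiLCs and 26.5 to 29.4 in 3xKD EpiLCs. Derl3 was low throughout, 1.24 to 1.86 CPM in Neg ESCs and 0.74 to 0.98 in 3xKD ESCs, and its log2 fold change turned from -0.89 to 0.20 with transcript-length offsets. Its call was also lost by DESeq2 (adjusted p = 0.0416) and in 9 of 12 fits that left out 1 library.

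The translocation and transport list had 0 of 21 genes called in ESCs by edgeR or DESeq2, and 1 in EpiLCs by edgeR (2 by DESeq2), in which none was called lower by either tool. By the adjusted p alone 4 were higher and 4 lower in ESCs, and at an unadjusted p under 0.05 the counts were 6 and 7. In EpiLCs 5 were higher and 9 lower by the adjusted p alone, and 6 and 10 at an unadjusted p under 0.05, with a list median of -0.13. The 1 call was Kdelr3, a receptor that returns ER residents from the Golgi, at 0.74 to 1.17 CPM in Neg EpiLCs and 1.98 to 2.73 in 3xKD EpiLCs. Of 10 further sensors and processing factors, Creb3l1 rose in 3xKD ESCs (4.59 to 5.16 CPM in Neg, 7.19 to 7.62 in 3xKD). Wfs1, an ER membrane protein, rose in 3xKD EpiLCs (14.4 to 16.2 CPM in Neg, 22.9 to 26.2 in 3xKD), and Atf6b, the paralog of Atf6, fell there (50.4 to 60.1 CPM in Neg, 33.8 to 39.6 in 3xKD).

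**Figure D4:**
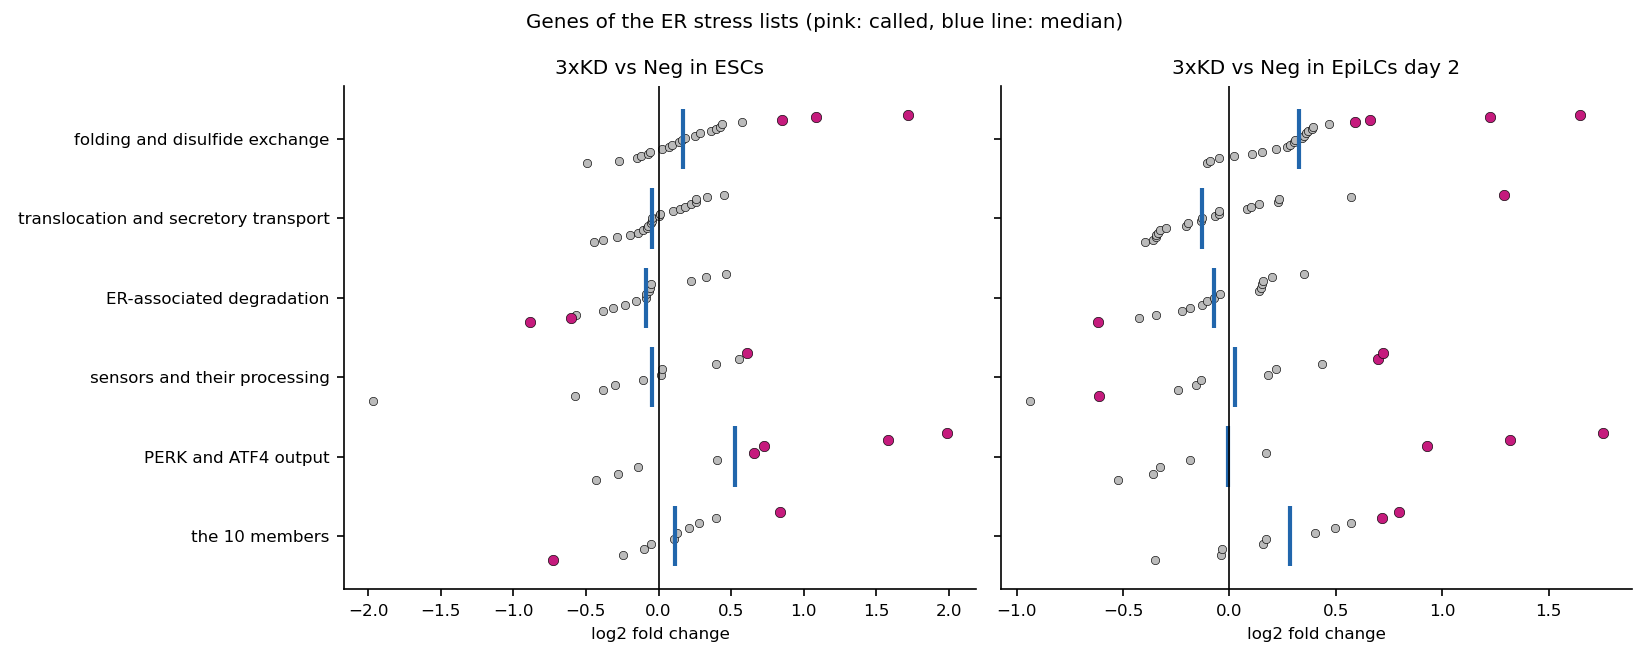
Log2 fold change of 3xKD against Neg (x axis) for each gene of 5 ER stress lists and for the 10 members (y axis), in ESCs (left) and EpiLCs day 2 (right), with called genes in pink and list medians as blue lines. Folding genes lie mostly to the right of 0 in EpiLCs (median 0.33), and the points farthest to the right are Ddit3 and Ero1a in ESCs and Trib3 and Ero1a in EpiLCs.

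Along the transition from ESCs to EpiLCs, 5 of the 76 genes rose and 9 fell in Neg, beside 9.78% and 11% of all tested genes. In 3xKD 4 rose and 8 fell, beside 9.42% and 9.32%, so the falls were near the background in both lines. Fkbp14, a prolyl isomerase of the ER, was at 3.63 to 5.99 CPM in Neg ESCs and 0.87 to 1.33 in Neg EpiLCs. Kdelr3 was at 5.23 to 7.85 and 0.74 to 1.17 CPM, a log2 fold change of -2.78 ± 0.21 (SE). In 3xKD the log2 fold changes were -1.77 for Fkbp14 and -1.82 for Kdelr3. Derl3 had 0.86 in Neg and 1.62 in 3xKD, and both of its calls and both of those of Fkbp14 were lost with transcript-length offsets. Of the CREB3 family, membrane-bound factors cleaved like ATF6, Creb3l1 rose from 4.59 to 5.16 CPM to 15.0 to 18.2 CPM in Neg, and Creb3l2 fell from 17.7 to 19.2 CPM to 5.36 to 6.17 CPM. In 3xKD these changes had log2 fold changes of 1.58 for Creb3l1 and -0.9996 for Creb3l2. Chac1, a glutathione-degrading enzyme downstream of ATF4, rose in both lines, with log2 fold changes of 0.83 in Neg and 1.03 in 3xKD. Atf3 fell (-0.97) and Sdf2, the paralog of Sdf2l1, rose (0.64) in 3xKD.

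The members did not follow Hspa5 as a block across the 12 libraries. By Pearson correlation of log2 CPM over the 9633 genes averaging 10 CPM or more, Xbp1 was the member nearest to Hspa5 (r = 0.72, rank 147), followed by Sdf2l1 (r = 0.44, rank 1595), Creld2 (r = 0.40, rank 1894) and Hsp90b1 (r = 0.36, rank 2225). Herpud1 (r = -0.26), Atf6 (r = -0.42) and Ern1 (r = -0.53) lay below 0. The 5 genes most like Hspa5 were Gm4971 (r = 0.91), Mb21d2, Inpp5e, Dgke and Usp17la, the last from a multigene family whose reads may be split among copies. The 12 libraries come from 4 groups, so these values describe the shared pattern of group means.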

How the data were processed

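RNA-seq of 12 libraries was analysed, grouped by the sample titles, since the cell type field of the labels contradicts some titles. The label gives polyA RNA and the protocol ribosomal depletion with a directional kit. Per the labels, the authors used Trim Galore 0.6.7, STAR 2.7.9a and Salmon 1.10.1 on GRCm39. The deposited tables hold, per transcript, the authors' estimated counts, not normalized, and TPM, scaled by the authors' quantifier for effective length and library total. For each gene the estimated counts of its transcripts were added here and the sums rounded, with no offset for transcript length. Genes with at least 10 counts in all (25446 of 57180) were fitted with edgeR 4.0.16 in R 4.3.3 (TMM factors, quasi-likelihood, 4 groups in 1 fit, Benjamini-Hochberg adjustment over all genes tested). The fit was tested on simulated data. The study describes its replicates as biological, without saying how those of this experiment were grown, and p-values measure the spread between the libraries of 1 line. No 2 libraries of a group agreed within sampling noise. Where the same replicate number was compared across groups, deviations correlated between -0.14 and 0.09, so the numbers were not treated as pairs.

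The members and all gene lists were chosen with earlier results of these data known. Pathway genes were named by rule: in each comparison and list, the called gene with the largest absolute log2 fold change in each direction among those with a mean of at least 1 CPM over the 12 libraries. Os9 in ESCs, the ESC effect of Trib3 and the EpiLC effect of Ddit3 were given beside these, and 1 gene that the rule picked is not reported here. GENCODE vM39 matched 99.0% of genes. The alternatives were DESeq2 1.42.0, other scaling factors and filters, transcript-length offsets, a replicate block, robust estimation, fits of single pairs of groups, looser and stricter limits, and leaving out each library in turn. For Xbp1 forms the alternative was shares of estimated counts, and for motifs 1 allowed mismatch.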

Additional observations from a re-analysis of the deposited data

Results flagged for a closer look

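The effect of 3xKD differed between EpiLCs day 2 and ESCs, by an interaction term at an adjusted p under 0.01, for 3 members and for 5 of the pathway genes picked by the naming rule. Of all tested genes, 4.76% were called higher and 5.27% lower in this comparison. Of the 76 pathway genes tested, 4 were called higher and 5 lower, so the pathway list lay near the background. The differences of log2 fold changes (EpiLCs minus ESCs) were 0.42 for Hspa5, 0.44 for Hsp90b1 and 0.50 for Xbp1. Manf, a secreted BiP cofactor, had 0.50 (35.8 against 43.4 CPM in 3xKD and Neg ESCs, 34.9 against 29.9 CPM in 3xKD and Neg EpiLCs). Os9 had 0.76 and Creb3l2 had 0.68. Txndc5, a protein disulfide isomerase, had -0.29, with 125 against 83.8 CPM in ESCs and 133 against 109 CPM in EpiLCs. Ddit3 had -0.67.

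In CPM, Manf and Os9 shared with Hspa5 a mean below Neg in 3xKD ESCs and above Neg in 3xKD EpiLCs. The EpiLC rises of Manf (0.22, edgeR adjusted p = 0.0114) and Os9 (0.15, edgeR adjusted p = 0.122) did not pass the adjusted p. Xbp1 had the same signs (-0.10 in ESCs and 0.40 in EpiLCs), as did further genes of the lists. With transcript-length offsets Manf, Txndc5 and Creb3l2 were no longer called, nor was Txndc5 with library size alone (-0.22). Creb3l2 also lost its call in 10 of 12 fits that left out 1 library.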

How the results depend on the processing

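Of 1180 refitted values of the members, 1096 kept their direction and their side of the limits. Transcript-length offsets changed most. With them 0 members were called in ESCs, 1 in EpiLCs, 0 along the 3xKD transition and 0 for the difference between states, where 3 rather than 9 pathway genes were past the limit, and the cause was not tested. Calls over all tested genes fell with them too, from 15.3% to 11%, 13.2% to 9.25%, 18.7% to 14.4% and 10% to 2.87% in these comparisons. With an adjusted p under 0.05 and no fold limit, the members called were 5 in ESCs, 7 in EpiLCs, 9 along the Neg transition and 5 along the 3xKD transition, beside 39.9%, 38.1%, 44.1% and 42.6% of all tested genes. Pathway genes called at that limit were 49, 53, 47 and 48 in the same order. For the difference they were 22, beside 16.2% of all tested genes. With a fold limit of 1 no members were called (0 in each of the 4 comparisons, beside 7.27%, 5.6%, 13.5% and 11.3% of all genes) and pathway genes were 4, 5, 5 and 7. Without a filter, 14 pathway genes differed between states, beside 3329 genes called over all genes in that fit. Leaving out 1 library gave 2 to 2 members in ESCs, 2 to 3 in EpiLCs, 1 to 1 and 0 to 2 along the Neg and 3xKD transitions and 3 to 3 for the difference, with pathway genes at 7 to 11, 11 to 12, 14 to 15, 12 to 13 and 7 to 11. No share of all tested genes is given for the fits that left out a library. The replicate block left the member counts at 2, 2, 1, 1 and 3 and changed no call of a member, and pathway counts were 9, 12, 14, 12 and 9, though the samples share only a number. DESeq2 gave the same member counts.

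Signs turned for values near 0 and with offsets. With transcript-length offsets the log2 values were 0.20 for Derl3 in ESCs, 0.0045 for Ern1 in EpiLCs, 0.11 for Hsp90b1 and -0.11 for Herpud1 along the Neg transition, and -0.0070 for Hsp90b1, -0.072 for Dnajb9, 0.45 for Herpud1, -0.015 for Creld2 and -0.23 for Pdia4 as the difference between states. With library size alone they were 0.023 for Ern1 and 0.021 for Creld2 in EpiLCs and 0.030 for Herpud1 as the difference. Along the 3xKD transition Hsp90b1 gave 0.029 with RLE factors, 0.072 with upper-quartile factors, 0.036 with library size, 0.029 with DESeq2, 0.012 with filterByExpr, 0.022 without a filter, 0.0996 with offsets and 0.00071 with only those 2 groups. Xbp1 gave 0.010 with RLE factors, 0.054 with upper-quartile factors, 0.018 with library size, 0.010 with DESeq2 and 0.0039 without a filter. Leaving out 1 library moved Hsp90b1 from -0.0083 to 0.025, Xbp1 from -0.042 to 0.029 and Herpud1 from -0.020 to 0.16 along the 3xKD transition, Ern1 from -0.088 to 0.014 in EpiLCs, and Atf6 from -0.019 to 0.073 and Creld2 from -0.021 to 0.035 as the difference. Spliced Xbp1 by estimated counts was 22.2%, 20.95%, 21.9% and 20.1% in Neg ESCs, 3xKD ESCs, Neg EpiLCs and 3xKD EpiLCs. With 1 mismatch allowed, 5 members held an ERSE, 4 an ERSE-II and 5 a UPRE core, beside 1.5%, 1.16% and 39.1% of all promoters.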
